A study of Homo sapiens with 6 samples.

Results

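The amino acid transporter genes described here are those whose symbol in the count table begins with SLC1A, SLC3A, SLC6A, SLC7A, SLC36A, SLC38A or SLC43A followed by a number alone, 43 of 27394 gene names. SLC38A, SLC6A and SLC7A have 10 genes each, SLC1A has 5, SLC36A and SLC43A have 3 each, and SLC3A has 2. The rule uses names alone, and each gene stands once in the table. The 6 RNA-seq libraries come from Huh7, an established human hepatocellular carcinoma line labelled as tumor cells from liver cancer and grown in DMEM with serum. Of these, 3 libraries carry a control short hairpin RNA (genotype label WT) and 3 an shRNA against CTSV (genotype label CTSV knockdown). The product of CTSV is cathepsin V, a cysteine protease found in lysosomes. Since the labels name no separate cultures behind the 3 libraries of a group, p-values here reflect spread among libraries alone, and that spread may be technical. The sources used here give neither the number of shRNAs or clones nor the time since their introduction.

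Amino acids are charged or polar and cross membranes through carriers. SLC1, SLC6 and SLC38 proteins mostly use the sodium gradient, SLC36 proteins use protons, and SLC43 proteins carry large neutral amino acids by facilitated diffusion. Most SLC7 light chains are exchangers that reach the cell surface only when bound to a heavy chain of the SLC3 family. In liver cells these carriers bring in glutamine, alanine, arginine and cystine for nitrogen disposal, glucose production and glutathione, and several of their genes are known targets of ATF4, the transcription factor of the amino acid response. The SLC6 family also holds carriers of neurotransmitters, taurine, betaine and creatine.

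Library totals lay between 16258803 and 18106207 counts. CTSV itself was at 42.3, 44.5 and 40.99 CPM with the control shRNA and 18.4, 16.00 and 16.3 CPM with the CTSV shRNA, where CPM is the count per 1000000 counts of the TMM-corrected library size. Its log2 fold change was -1.34, SE 0.0958, edgeR adjusted p = 7.20e-14, in the direction of the labels. All 10 hepatocyte markers looked for were measured, with a summed level of 33863 to 34645 CPM for the control and 41384 to 42444 CPM for the CTSV shRNA, and 6 of them rose and 1 fell. Of 7 stellate cell or fibroblast markers 4 were in the table, with a sum of 12.3 to 15.1 CPM and 21.1 to 26.96 CPM in the same order. The 3 of 7 blood cell markers in the table summed to 2.41 to 3.19 CPM and 2.00 to 3.15 CPM, and the 3 of 6 endothelial ones to 18.3 to 23.8 CPM and 19.8 to 22.1 CPM. Of 5 cholangiocyte markers 4 were in the table, at 175.8 to 192.8 CPM and 173.7 to 187.4 CPM in sum. None of the markers in the table was at 0 in all libraries, and the other names looked for are not in it. COL1A2 (1.02) and EPCAM (1.08) rose and SOX9 fell (-0.17) on the log2 scale, and their part in the changes below was not tested. In such bulk libraries, fewer cells of a type and less RNA per cell cannot be told apart.

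More transporter genes fell than rose in the knockdown libraries. Of the 43 genes, 40 passed the filter on low counts and were tested, and 17 fell, 8 rose and 15 were not called at an adjusted p under 0.05 (quasi-likelihood test of edgeR, Benjamini-Hochberg adjustment over 15968 genes). Over all genes tested, 40.3% were called, as 21.6% fell and 18.7% rose. Among the 12658 protein-coding genes tested, 26.2% fell and 18.7% rose. The split over all genes depends on the scaling: with TMM 3451 fell and 2982 rose, and with upper-quartile factors 2566 fell and 3800 rose, where 17 of the 40 fell and 12 rose. The 40 had a median log2 fold change of -0.14, against 0.02 for all genes tested. The largest falls were in the cystine transporter SLC7A11, to 32.65% of the control level, the leucine transporter SLC7A5 (38.1%), the broad-range transporter SLC6A14 (42.5%) and the arginine transporter SLC7A1 (43.4%). These 4 were the falls of at least 2-fold, a size reached downward by 0.958% of all genes tested. The rises of at least 2-fold were SLC3A1, SLC6A4, SLC6A13, SLC1A1, SLC38A11 and SLC38A3, 6 genes that all had a mean under 20 CPM. Of all genes tested 4.23% rose that far, and under a mean of 20 CPM it was 639 of 8353. The groups did not overlap in 29 of the 40 genes, against 49.2% of all genes tested. In every sentence below, a log2 fold change is CTSV shRNA over control shRNA from this test, with its standard error (SE), and "rose" and "fell" are used only for called genes.

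**Figure D1:**
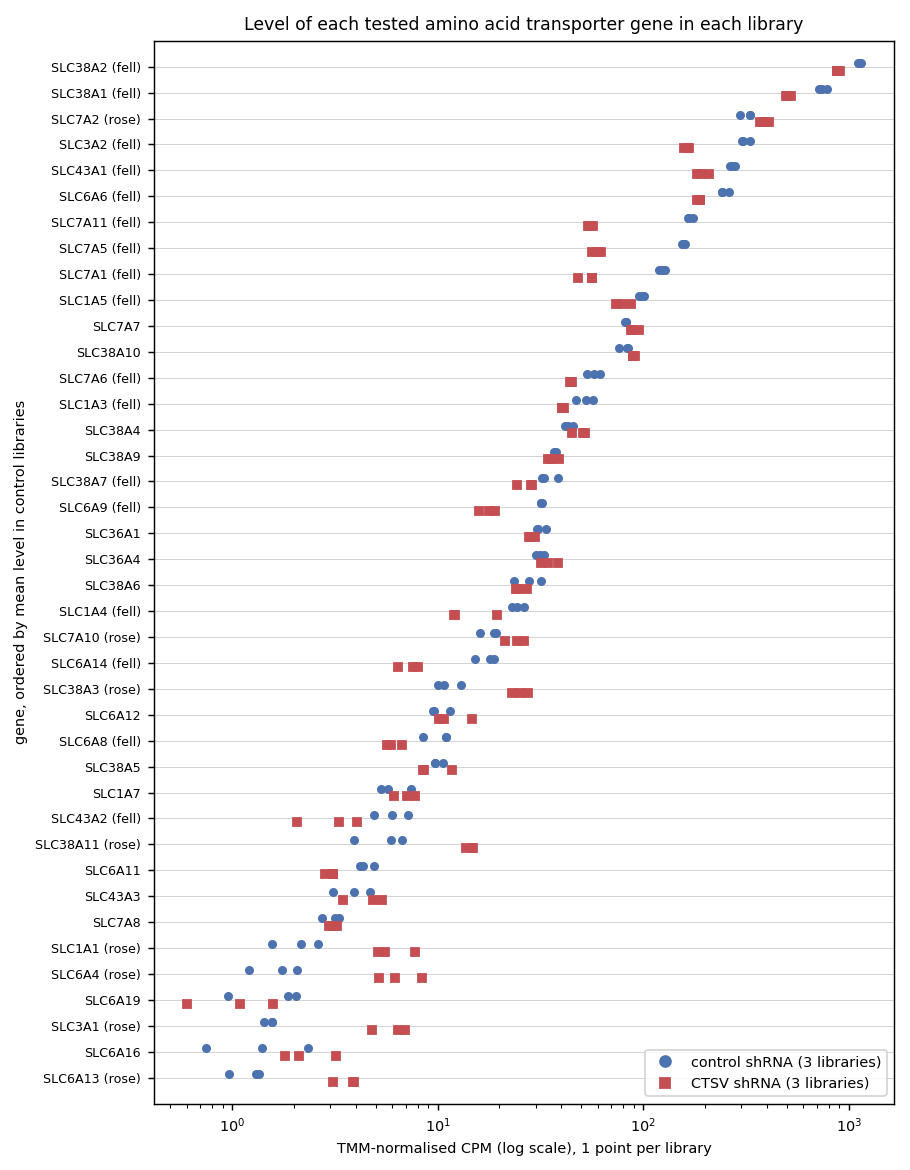
TMM-normalised CPM of each of the 40 tested genes on a log axis, 1 point per library, ordered by the mean of the control libraries (circles) with knockdown libraries as squares. SLC38A2 leads at 1104 to 1145 CPM in controls, and SLC7A11, SLC7A5 and SLC7A1 show the widest separation among genes above 20 CPM.

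Level and direction went together in these families as in the whole table. Of 22 tested transporter genes whose mean over the 6 libraries was at least 20 CPM, 13 fell and 2 rose, with a median of -0.35. At that level 37.0% of 7615 genes fell and 19.1% rose, with a median of -0.08. Of the 18 below it, 6 rose and 4 fell, with a median of 0.20. Among 8353 genes at that lower level 18.3% rose and 7.55% fell, with a median of 0.19. The members' lower-level median thus lay near that of all genes there, while their higher-level median was further from it.

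**Figure D2:**
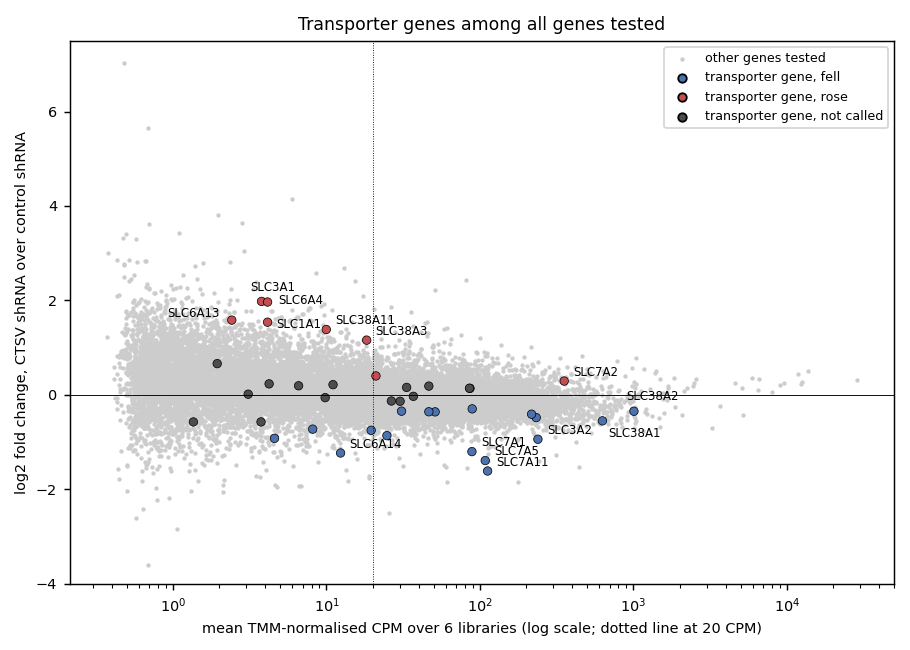
Log2 fold change against the mean CPM (log axis) of all 15968 genes tested in grey, with the 40 transporter genes in blue (fell), red (rose) and dark grey (not called), and a dotted line at 20 CPM. The transporter genes that rose by at least 2-fold lie to the left of the line. SLC7A11 at -1.61 is among the 33 of 7615 genes to its right that fell by at least 2-fold, and 37 of the 7615 rose that far.

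RefSeq promoter windows (250 bases before to 50 after a transcript start, GRCh38.p14) were found for 35 of the 43 genes, 56 windows in all because a gene can have several starts. SLC3A1, SLC6A6, SLC6A12, SLC7A2, SLC7A4, SLC7A11, SLC38A3 and SLC43A3 had no window in the table used. The core of the element bound by ATF and C/EBP factors, TGATGNAA on either strand, was in windows of 6 genes, and all 6 were genes that fell, out of 15 with a window. It was in 0 of the 5 genes that rose and 0 of the 13 not called. By gene this is 6 of 35, or 17.1%, against 4.46% of all 27305 gene symbols with a window. By window it is 6 of 56, or 10.7%, against 3.62% of all 35116 windows. The sites are shown because they belong to carriers that fell by different amounts, and each is printed 5′ to 3′ in the direction of the motif, which stands in capitals.
SLC7A1: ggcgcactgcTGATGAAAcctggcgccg
SLC3A2: ggagcTGATGTAAggagtcctgc
SLC1A4: cggctggagaTGATGCAAacgggagccg
SLC38A1: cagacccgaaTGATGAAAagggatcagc
SLC1A3: aggaaatgacTGATGCAAagcagggtta
SLC1A5: aggaagtggcTGATGCAAgctgtccagg

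Positions count the motif's first base in the gene's direction, with the first transcribed base as 1 and the base before it as -1. The SLC7A1 site lies on the gene's strand at chr13:29595674-29595681, from position 8, in an untranslated region of GENCODE v29. The SLC3A2 site is on the strand opposite to the gene at chr11:62881736-62881743, from position 38 of a start within the gene, also in an untranslated region. Those of SLC1A4 (chr2:64989392-64989399, opposite strand, position -7) and SLC38A1 (chr12:46266513-46266520, gene's strand, position -4) span the start of a transcript within the gene and are intronic. That of SLC1A5 (chr19:46784904-46784911, gene's strand, position -97 of a start within the gene) lies partly in an untranslated region. That of SLC1A3 (chr5:36596368-36596375, gene's strand, position -220) lies outside the annotated gene, as does the RefSeq start it is counted from. Of these starts, only that of SLC7A1 is the 5′ end of the gene in GENCODE v29. A match is a description of the letters and no evidence of binding.

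The core of the antioxidant response element, TGACNNNGC, was in windows of 7 genes, 20% of the 35, against 16.1% of all gene symbols with a window. By window it was 7 of 56, or 12.5%, against 13.3% of all windows. Its 6 genes that fell, out of 15 with a window, were SLC1A3, SLC1A5, SLC3A2, SLC7A1, SLC7A5 and SLC7A6. The other was SLC7A7, 1 of the 13 not called, and 0 of the 5 that rose had it. By call, the split was thus close to that of TGATGNAA. SLC7A5 is shown because it had the largest fall of these and no TGATGNAA. SLC3A2 is shown as an example of a gene with both cores in its windows, as SLC1A3, SLC1A5 and SLC7A1 also had.
SLC7A5: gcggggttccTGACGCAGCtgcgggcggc
SLC3A2: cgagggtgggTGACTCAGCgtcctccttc

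The SLC7A5 letters lie on the gene's strand at chr16:87869501-87869509, from position -2 of a RefSeq start and outside the gene in GENCODE v29. Those of SLC3A2 lie on the gene's strand at chr11:62881662-62881670, from position -37 of a start and in an annotated exon. The 2 cores share letters at no site found.

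The heavy chains moved in opposite directions. SLC3A2 (chromosome 11, 62856102 to 62888875, plus strand) encodes the heavy chain that carries SLC7A5, SLC7A6, SLC7A7, SLC7A8, SLC7A10 and SLC7A11 to the plasma membrane. It was at 304, 331 and 307 CPM in the control and 167, 165 and 158 CPM in the CTSV shRNA libraries, or 314 ± 14.6 and 163 ± 4.62 CPM (SD, n = 3 each). No knockdown library exceeded 167 CPM and no control was under 304 CPM, and the level fell to 52.1% (log2 fold change -0.94, SE 0.0493, edgeR adjusted p = 1.32e-17). SLC3A1, the heavy chain of the cystine and dibasic amino acid transporter of kidney and intestine, had 28, 26 and 23 counts in controls and 79, 114 and 116 in knockdown libraries. It rose by 1.98 on the log2 scale, from 1.52 to 6.02 CPM, and stayed far below SLC3A2. SLC3A1 overlaps PREPL on the other strand, which had 1767, 1510 and 1600 counts in controls and 1395, 1525 and 1662 in knockdown libraries and was not called (-0.11). Whether strand was used in counting is not stated, so reads of PREPL could be counted for SLC3A1. SLC7A9, the light chain that pairs with SLC3A1, was not tested at 2, 0 and 0 and 0, 1 and 4 counts. The ratio of SLC3A1 to SLC3A2 counts was 0.00517, 0.00473 and 0.00466 in controls and 0.0286, 0.0419 and 0.0403 in knockdown libraries. With 0.5 added to each count and averaged on the log2 scale, it was 7.40 times as high.

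Among the light chains, SLC7A11 and SLC7A5 had larger log2 fold changes than their heavy chain SLC3A2. SLC7A11 (chromosome 4, 138164097 to 138242349, minus strand) exchanges extracellular cystine for glutamate and feeds glutathione synthesis. It was at 175, 166 and 167 CPM with the control shRNA and 53.8, 55.1 and 56.8 CPM with the CTSV shRNA, or 169 ± 5.21 and 55.2 ± 1.53 CPM (SD, n = 3 each). The groups lay far apart with little spread, and the log2 fold change was -1.61, SE 0.0577, edgeR adjusted p = 2.47e-22. SLC7A5 (chromosome 16, 87830023 to 87869488, minus strand) takes up leucine and other large neutral amino acids in exchange for glutamine. It was at 154, 156 and 161 CPM and 62.7, 60.2 and 56.4 CPM, or 157 ± 3.46 and 59.7 ± 3.16 CPM (SD, n = 3 each), with a log2 fold change of -1.39, SE 0.0587, edgeR adjusted p = 2.71e-20. Its pseudogene SLC7A5P1 had 4, 17 and 24 counts in controls and 7, 4 and 6 in knockdown libraries, beside 993 to 2743 for SLC7A5. These counts do not show how many reads match both copies. The sources used here do not say how such reads were treated. The antisense gene SLC7A11-AS1 had 60, 38 and 38 counts in controls and 32, 28 and 34 in knockdown libraries, few beside those of SLC7A11.

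The ratios of SLC7A11 and of SLC7A5 to SLC3A2 were lower in each knockdown library than in any control. SLC7A11 counts were 0.577, 0.501 and 0.543 times those of SLC3A2 in controls and 0.3215, 0.334 and 0.359 times in knockdown libraries, a log2 difference of -0.67. For SLC7A5 the ratio was 0.506, 0.472 and 0.5225 in controls and 0.375, 0.365 and 0.356 in knockdown libraries, a log2 difference of -0.45. Library scaling cancels in such a ratio, and the groups did not overlap in either. An exact permutation test, two-sided over 3 and 3 libraries, gave p = 0.1 for both, the smallest it can give.

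Of the other 4 light chains of SLC3A2, 1 fell, 1 rose and 2 were not called, where 21.6% of all genes tested fell and 18.7% rose. SLC7A6, which exchanges cationic for neutral amino acids, was at 57.4, 53.5 and 61.4 CPM in the control and 44.2, 45.2 and 44.7 CPM in the CTSV shRNA libraries. Every knockdown library lay below every control, by a smaller step than in SLC7A5, with a log2 fold change of -0.36, SE 0.0748, edgeR adjusted p = 1.58e-04. Its close relative SLC7A7, mutated in lysinuric protein intolerance, was at 82.8, 82.3 and 81.2 CPM with the control shRNA and 95.1, 87.9 and 87.7 CPM with the CTSV shRNA. The groups did not overlap, yet it was not called (log2 fold change 0.14, edgeR adjusted p = 0.0709), with a 95% interval of 0.01 to 0.26. With upper-quartile factors it was called higher (0.21). SLC7A10, a carrier of small neutral amino acids such as serine and glycine, was at 18.8, 19.3 and 16.1 CPM and 24.3, 26.2 and 21.2 CPM. It rose in each knockdown library above the highest control (log2 fold change 0.40, SE 0.112, edgeR adjusted p = 0.00396). SLC7A10 overlaps LRP3 on the other strand, with 751 to 806 counts in controls and 696 to 793 in knockdown libraries, and LRP3 was not called. SLC7A8, a neutral amino acid exchanger, was between 2.75 and 3.31 CPM in all 6 libraries, with a 95% interval of -0.53 to 0.56 for its log2 fold change.

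**Figure D3:**
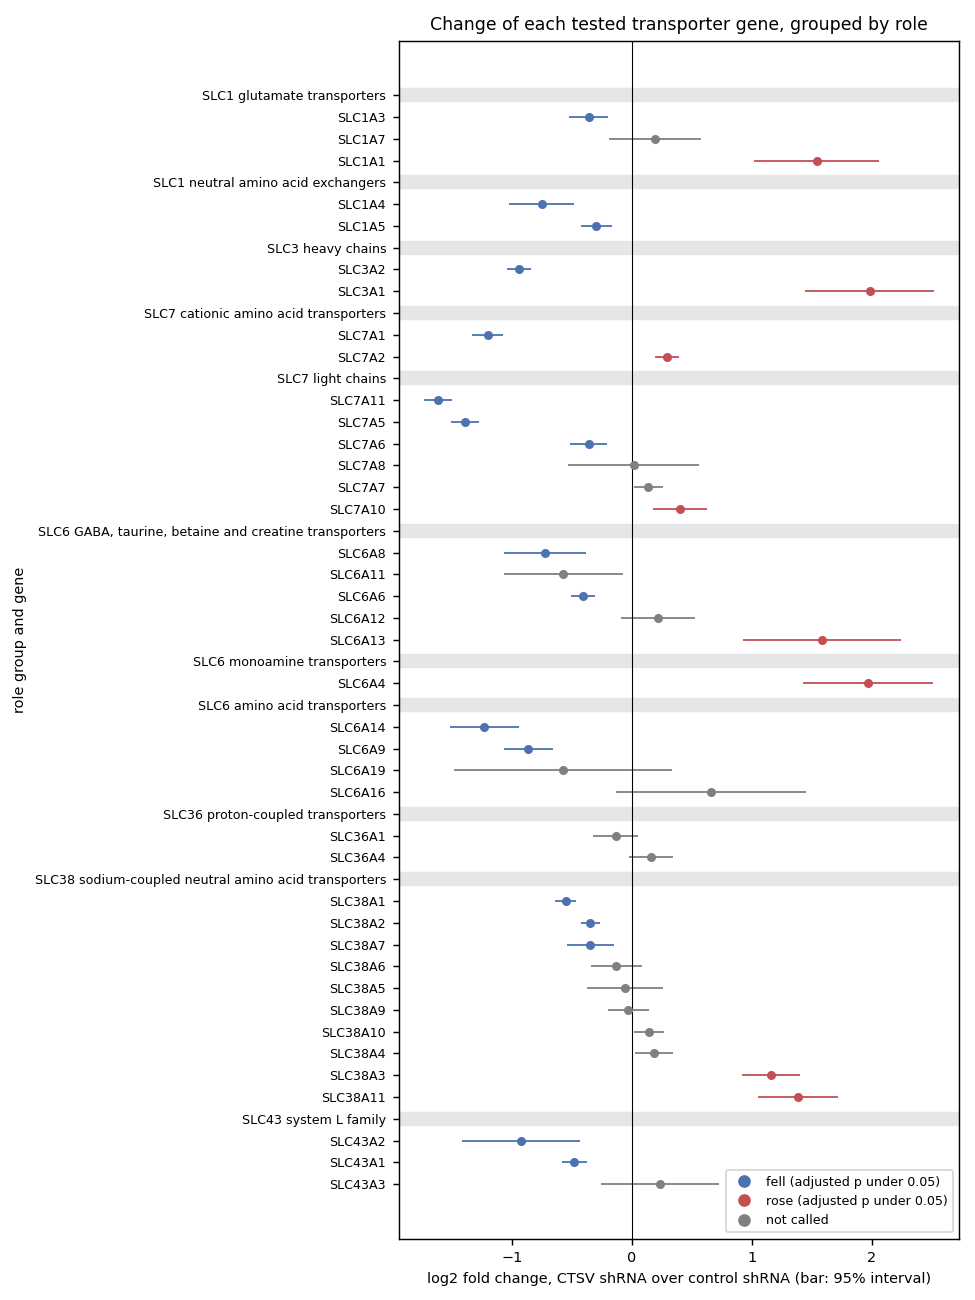
Log2 fold change of each of the 40 tested genes (points) with 95% intervals (bars), grouped by role, in blue for genes that fell, red for genes that rose and grey for genes not called. Intervals are narrow for abundant genes such as SLC38A2 and wide for SLC6A19 and SLC6A16, which had the fewest counts.

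The cationic amino acid carriers that work without a heavy chain also went opposite ways. SLC7A1 (chromosome 13, 29509410 to 29595688, minus strand), the widespread arginine and lysine carrier whose TGATGNAA is shown above, was at 128, 119.8 and 123 CPM in the control and 48.1, 56.5 and 56.4 CPM in the CTSV shRNA libraries, or 124 ± 4.24 and 53.7 ± 4.83 CPM (SD, n = 3 each). No knockdown library exceeded 56.5 CPM and no control was under 119.8 CPM, a log2 fold change of -1.20, SE 0.0651, edgeR adjusted p = 2.96e-17. SLC7A2 (chromosome 8, 17497088 to 17570573, plus strand), the cationic carrier typical of liver, was at 329.9, 295 and 331 CPM with the control shRNA and 372, 388 and 409 CPM with the CTSV shRNA, or 319 ± 20.8 and 389.9 ± 18.7 CPM (SD, n = 3 each). It rose by a small step with no overlap between the groups (log2 fold change 0.29, SE 0.0494, edgeR adjusted p = 9.49e-06). The ratio of SLC7A1 to SLC7A2 counts was 0.389, 0.407 and 0.371 in controls and 0.129, 0.145 and 0.138 in knockdown libraries, 0.354 times as high on average. The exact two-sided permutation test gave p = 0.1, the smallest possible. That outcome was fixed in advance, as 1 gene fell and the other rose, each with no overlap. This ratio and those of SLC3A1 to SLC3A2 and SLC38A1 to SLC38A2 were chosen after the values were seen. SLC7A4 was not tested, at 0, 0 and 2 counts in controls and 3, 5 and 3 in knockdown libraries.

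**Figure D4:**
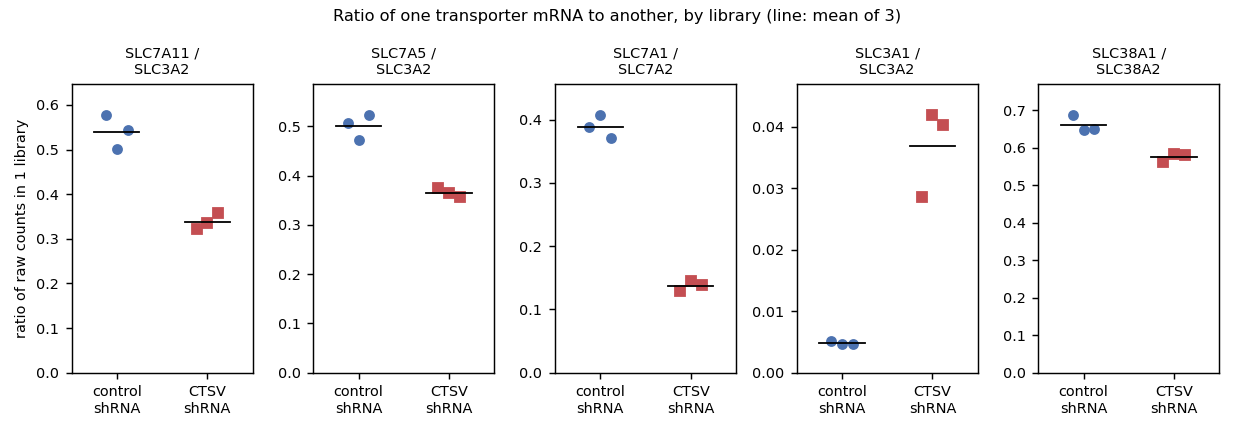
Ratio of the raw counts of one transporter gene to another in each library, with control libraries as circles, knockdown libraries as squares and the mean of 3 as a line, each panel on its own linear axis from 0. SLC7A11 to SLC3A2, SLC7A5 to SLC3A2, SLC7A1 to SLC7A2 and SLC38A1 to SLC38A2 are lower in each knockdown library, and SLC3A1 to SLC3A2 is higher.

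The SLC38 family held the most abundant transporter mRNAs, and 3 of its 10 genes fell, 2 rose and 5 were not called, shares near those of all genes tested (21.6% fell and 18.7% rose). SLC38A2 (chromosome 12, 46358189 to 46372867, minus strand), a sodium-coupled carrier of alanine, glutamine and other small neutral amino acids, was at 1145, 1104 and 1141 CPM in the control and 881, 874 and 906 CPM in the CTSV shRNA libraries, or 1130.1 ± 22.5 and 887 ± 16.4 CPM (SD, n = 3 each). The fall was small beside the level and larger than the spread in either group (log2 fold change -0.35, SE 0.0391, edgeR adjusted p = 3.53e-09). SLC38A1, its neighbour 88.2 kb away on the same strand and a glutamine carrier of the same transport system, was at 786, 716 and 742 CPM with the control shRNA and 494, 509 and 526 CPM with the CTSV shRNA, or 748 ± 35.7 and 509.9 ± 16.2 CPM (SD, n = 3 each). It had a log2 fold change of -0.55, SE 0.0438, edgeR adjusted p = 1.01e-12. The ratio of SLC38A1 to SLC38A2 counts, chosen after the values were seen, was 0.687, 0.648 and 0.650 in controls and 0.561, 0.582 and 0.581 in knockdown libraries. The log2 difference was -0.20 (exact two-sided permutation p = 0.1, the smallest possible). SLC38A4, a liver carrier of the same system on the other side of SLC38A2 at 391.9 kb, was at 43.1, 41.8 and 45.6 CPM and 45.1, 52.05 and 51.1 CPM. The groups overlapped slightly, and it was not called (log2 fold change 0.18, edgeR adjusted p = 0.0602), with a 95% interval of 0.02 to 0.34. With upper-quartile factors it was called higher (0.26), as it was without knockdown replicate 1 (0.24).

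SLC38A3, a carrier of glutamine and histidine that can work in both directions, was at 10.8, 13.1 and 10.1 CPM in the control and 25.3, 27.4 and 23.05 CPM in the CTSV shRNA libraries, or 11.3 ± 1.56 and 25.2 ± 2.17 CPM (SD, n = 3 each). The lowest knockdown library was at 23.05 CPM and the highest control at 13.1 CPM, a log2 fold change of 1.16, SE 0.121, edgeR adjusted p = 7.21e-10. SLC38A11, a family member with no well established substrate, was at 5.94, 3.91 and 6.73 CPM and 13.7, 14.7 and 14.9 CPM, with a log2 fold change of 1.38, SE 0.166, edgeR adjusted p = 1.51e-08. It overlaps the antisense gene AC019197.1, which had 114, 105 and 128 counts in controls and 209, 206 and 275 in knockdown libraries and rose as well (0.96). SLC38A11 had 106, 65 and 108 and 226, 242 and 271 counts, so that without strand the reads of the 2 genes cannot be told apart. SLC38A5, the other glutamine carrier of the SLC38A3 type, was not called, with a 95% interval of -0.38 to 0.26.

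Of 3 carriers known from the lysosome, the compartment of cathepsin V, 1 was called, where 40.3% of all genes tested were called. SLC38A7, which exports glutamine and asparagine from lysosomes, was at 38.5, 32.8 and 32.3 CPM with the control shRNA and 28.5, 28.7 and 24.3 CPM with the CTSV shRNA, and fell (log2 fold change -0.35, SE 0.0967, edgeR adjusted p = 0.00386). The control libraries were uneven, and without control replicate 1 the log2 fold change was -0.27 and was not called (adjusted p = 0.0505 in the same edgeR test). SLC38A9, the lysosomal arginine sensor that signals to the growth kinase mTORC1, was at 37.8, 37.1 and 36.9 CPM and 34.4, 35.8 and 39.00 CPM. The groups overlapped, with a log2 fold change of -0.03, edgeR adjusted p = 0.787 and an interval of -0.20 to 0.14. SLC36A1, a proton-coupled carrier of small neutral amino acids in lysosomes and at the cell surface, was at 30.8, 30.4 and 33.7 CPM and 27.8, 28.6 and 29.8 CPM. The groups did not overlap, and it was not called (log2 fold change -0.14, edgeR adjusted p = 0.238, interval -0.32 to 0.05). SLC36A4, a carrier of proline and tryptophan, was at 33.1, 31.4 and 30.03 CPM and 32.00, 34.6 and 38.7 CPM, with overlapping groups and no call (log2 fold change 0.16, edgeR adjusted p = 0.177, interval -0.03 to 0.34). SLC36A3 was not tested, at 0, 0 and 1 counts in controls and 8, 0 and 0 in knockdown libraries, 8 of them in 1 library.

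SLC38A10 and SLC38A6 are family members whose substrates are less settled. SLC38A10 was at 76.2, 84.7 and 83.4 CPM in the control and 88.9, 88.9 and 91.1 CPM in the CTSV shRNA libraries, close together and not overlapping. It was not called (log2 fold change 0.14, edgeR adjusted p = 0.0684, interval 0.01 to 0.26), and with upper-quartile factors it was called higher (0.21). SLC38A6 was at 27.9, 31.8 and 23.4 CPM and 27.3, 23.99 and 24.6 CPM, with overlapping groups and no call (log2 fold change -0.13, edgeR adjusted p = 0.336, interval -0.34 to 0.08). SLC38A6 overlaps TRMT5 on the other strand, which was not called either (-0.06).

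In the SLC43 family, which carries branched-chain and other large neutral amino acids without coupling to an ion gradient, 2 of 3 genes fell. Over all genes tested 21.6% fell, and 26.2% of the protein-coding ones. SLC43A1 (chromosome 11, 57484534 to 57515786, minus strand), the form known from liver and prostate, was at 269, 279.6 and 265 CPM with the control shRNA and 191, 209 and 183 CPM with the CTSV shRNA, or 271 ± 7.52 and 194 ± 13.3 CPM (SD, n = 3 each). No knockdown library reached the lowest control, and the log2 fold change was -0.48, SE 0.05096, edgeR adjusted p = 9.26e-10. SLC43A2, a related leucine and phenylalanine carrier of lower level, had 87, 100 and 115 counts in controls and 55, 34 and 74 in knockdown libraries and fell (-0.92). SLC43A3, 57.0 kb from SLC43A1 and a purine base carrier rather than an amino acid carrier, was not called, with a 95% interval of -0.26 to 0.72.

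Both neutral amino acid exchangers of the SLC1 family fell, and its glutamate carriers went both ways, where 21.6% of all genes tested fell and 18.7% rose. SLC1A5 (chromosome 19, 46774883 to 46788594, minus strand), the glutamine exchanger of many tumour cells, was at 95.1, 101 and 98.9 CPM in the control and 73.97, 86.8 and 78.9 CPM in the CTSV shRNA libraries, or 98.3 ± 2.93 and 79.9 ± 6.49 CPM (SD, n = 3 each). The step was small with no overlap (log2 fold change -0.30, SE 0.0629, edgeR adjusted p = 2.03e-04). SLC1A4, which exchanges alanine, serine and cysteine, was at 23.04, 26.3 and 24.3 CPM and 19.5, 11.997 and 12.2 CPM. Knockdown replicate 1 stood above the other 2 and still below each control, and the log2 fold change was -0.75, SE 0.133, edgeR adjusted p = 1.80e-05. It was -1.02 without that library.

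SLC1A3, a high-affinity glutamate carrier best known from glia, was at 52.6, 47.00 and 57.1 CPM with the control shRNA and 40.5, 40.5 and 41.1 CPM with the CTSV shRNA. The 3 knockdown libraries were nearly equal and below each control, a log2 fold change of -0.36, SE 0.0799, edgeR adjusted p = 3.88e-04. SLC1A1, the glutamate and cysteine carrier of epithelia and neurons, had 28, 36 and 42 counts in controls and 128, 92 and 93 in knockdown libraries. It rose by 1.54 on the log2 scale from a low level, 2.12 to 6.14 CPM. SLC1A1 overlaps SPATA6L on the other strand, with 192 counts in all libraries against 419 for SLC1A1. Whether strand was used in counting is not stated, so reads of SPATA6L could be counted for SLC1A1. SLC1A7, a glutamate carrier of the retina, was not called at 95 to 119 counts in controls and 101 to 129 in knockdown libraries, with a 95% interval of -0.19 to 0.57.

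In the SLC6 family 4 of 10 genes fell, 2 rose and 4 were not called, where 21.6% of all genes tested fell and 18.7% rose. SLC6A14 (chromosome X, 116436622 to 116461458, plus strand), which takes up nearly all neutral and cationic amino acids, was at 15.2, 18.8 and 18.1 CPM in the control and 7.62, 6.42 and 8.03 CPM in the CTSV shRNA libraries, or 17.3 ± 1.897 and 7.36 ± 0.836 CPM (SD, n = 3 each). The highest knockdown library was at 8.03 CPM and the lowest control at 15.2 CPM, a log2 fold change of -1.23, SE 0.142, edgeR adjusted p = 6.42e-09. SLC6A9, a glycine carrier, was at 31.9, 31.95 and 32.1 CPM and 15.9, 18.96 and 17.8 CPM, or 31.98 ± 0.0939 and 17.5 ± 1.54 CPM (SD, n = 3 each). The controls were nearly identical and well above each knockdown library, a log2 fold change of -0.87, SE 0.101, edgeR adjusted p = 8.69e-09. SLC6A9 overlaps CCDC24 on the other strand, which had 25, 28 and 47 counts in controls and 62, 70 and 76 in knockdown libraries and rose.

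SLC6A6 (chromosome 3, 14402576 to 14489349, plus strand), the taurine carrier, was at 241, 241 and 261 CPM with the control shRNA and 188, 189 and 182 CPM with the CTSV shRNA, or 248 ± 11.5 and 186 ± 3.79 CPM (SD, n = 3 each). It fell with no overlap between the groups (log2 fold change -0.41, SE 0.0494, edgeR adjusted p = 1.57e-08). The creatine carrier SLC6A8 was at 8.47, 10.95 and 11.03 CPM and 5.69, 6.73 and 5.94 CPM, with a log2 fold change of -0.73, SE 0.169, edgeR adjusted p = 6.38e-04. SLC6A8 has near-identical copies elsewhere in the genome, and the sources used here do not say how reads with several matches were treated.

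The rises in this family started from few counts. SLC6A4, the serotonin carrier, had 37, 20 and 28 counts in controls and 102, 139 and 94 in knockdown libraries, and rose by 1.97 on the log2 scale. SLC6A13, a GABA and taurine carrier found in liver, had 24, 16 and 21 and 51, 64 and 71 counts and rose by 1.58. Its neighbour SLC6A12, the betaine carrier 6.0 kb away on the same strand, was not called (0.21), with a 95% interval of -0.09 to 0.52. The GABA carrier SLC6A11 had 77, 70 and 79 and 47, 51 and 56 counts and was not called (-0.575, adjusted p = 0.0581, edgeR's quasi-likelihood test). SLC6A16 and SLC6A19 had 53 counts or fewer in each library and were not called.

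Compared per length, a few genes made up most of the transporter mRNA. Levels here are CPM per kilobase of transcript, with the median length of the GENCODE basic protein-coding transcripts of each gene. In controls SLC38A2 was at 403 ± 8.05 CPM per kilobase (SD, n = 3), SLC38A1 at 258 ± 12.3, SLC3A2 at 154 ± 7.17 and SLC43A1 at 109 ± 3.03. SLC1A5 followed at 50.4 ± 1.502. Each of these 5 lay above the next with no overlap between control libraries, while SLC7A2, SLC6A6 and SLC7A7 each overlapped the next in the order SLC7A2, SLC6A6, SLC7A7, SLC7A5, at 42.15 to 36.8 CPM per kilobase. The order depends on the transcript assumed: with the longest transcript, SLC38A1 was at 92.7 CPM per kilobase, below SLC3A2 (141.3) and SLC43A1 (104.4). SLC38A2 took 29.6% of the summed level in controls and 30.5% in knockdown libraries, and SLC3A2 11.3% and 7.74%. By rank among the 43 genes, SLC7A5 went from 9 in controls to 14 in knockdown libraries, SLC7A11 from 12 to 24 and SLC7A1 from 13 to 22, while SLC38A11 went from 28 to 19.

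The summed level of all 43 genes was 1361 ± 10.4 CPM per kilobase with the control shRNA and 1037 ± 9.92 with the CTSV shRNA (SD, n = 3 each), a log2 difference of -0.39. The 10 SLC38 genes gave 754 ± 18.4 and 595 ± 10.6 CPM per kilobase, a log2 difference of -0.34, and 55.4% and 57.4% of the sum. The SLC3 heavy chains had the largest log2 difference of the 7 families, -0.89, from 154.9 ± 7.19 to 83.7 ± 2.01 CPM per kilobase, of which SLC3A2 made up 154 and 80.2. The SLC7 genes had -0.28, from 170.8 ± 3.60 to 140.9 ± 0.4245 CPM per kilobase, within which SLC7A2 went from 42.15 to 51.6 and SLC7A5 from 36.8 to 14.02 CPM per kilobase. The log2 differences were -0.48 for SLC43, -0.44 for SLC6 and -0.31 for SLC1. SLC36 overlapped between the groups (-0.04). In the other 6 families every knockdown library lay below every control library. As raw counts, the 43 genes took 0.407% to 0.421% of each control library and 0.3215% to 0.330% of each knockdown library.

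**Figure D5:**
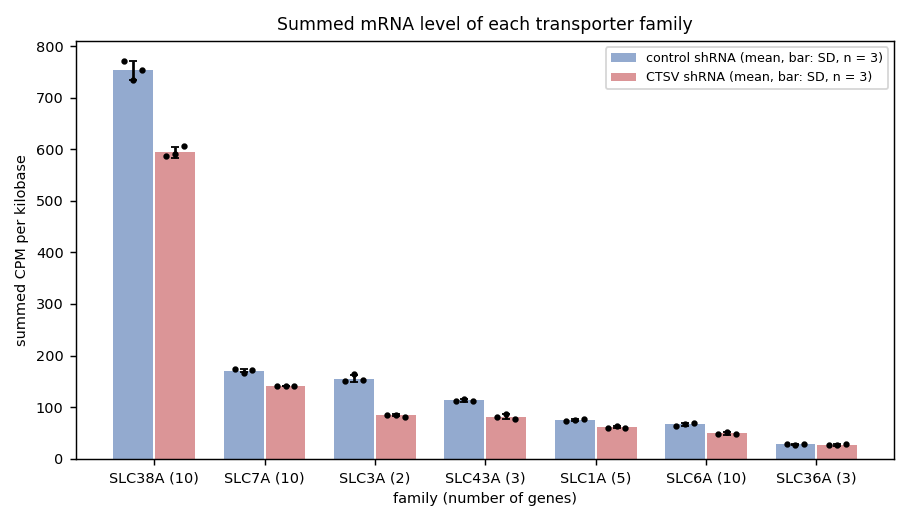
Summed CPM per kilobase of each transporter family (bars: mean of 3 libraries, error bars: SD, points: libraries), with the number of genes in brackets. The SLC3 sum drops from 154.9 to 83.7 CPM per kilobase, and the SLC36 sums of the groups overlap.

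Other genes that sense, feed or use these amino acids were counted from lists drawn up with earlier results of these data known. Their counts stand against 21.6% of all genes tested that fell and 18.7% that rose, or 37.0% and 19.1% of genes at a mean of 20 CPM or more. Among 22 regulators and targets of the amino acid response, 20 fell, 0 rose and 2 were not called, with a median of -0.73, against 0.02 for all genes tested. ATF4 itself went from 542 ± 22.4 to 330.3 ± 16.4 CPM (SD, n = 3 each). STC2, a secreted glycoprotein (-1.25), TRIB3, a pseudokinase (-0.97), and the serine pathway enzymes SHMT2 (-0.79) and PSAT1 (-0.75) had the smallest adjusted p. The sensor kinase EIF2AK4 and the asparagine synthetase ASNS were the 2 not called, named after their values were seen, as are GGT1 and GPT below. Among 12 genes of cystine and glutathione use, 7 fell, 1 rose and 4 were not called, with a median of -0.41. The thioredoxin reductase TXNRD1 (-0.77), the glutathione synthesis subunit GCLM (-1.10), glutathione reductase GSR (-0.62) and the cystathionine lyase CTH (-0.90) fell. GGT1, the surface enzyme that breaks down glutathione, rose (0.64).

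The carrier and sensing lists below had shares near those of all genes tested (21.6% fell and 18.7% rose), and nothing is read from their counts. Of 13 tested amino acid carriers outside the 7 families, 4 fell, 2 rose and 7 were not called, with a median of -0.06. The aromatic amino acid carrier SLC16A10 rose (0.81), and the lysosomal cystine carrier CTNS (-0.43) and the mitochondrial carriers SLC25A13 (-0.21) and SLC25A18 (-0.42) fell. Of 18 tested genes of lysosomal amino acid sensing, 5 fell, 3 rose and 10 were not called, with a median of -0.06. SESN3 rose (1.55), and the Rag GTPase RRAGD (-0.51) and the scaffold genes LAMTOR1 (-0.55) and LAMTOR2 (-0.63) fell. Of 14 tested genes of glutamine, arginine and branched-chain catabolism, 7 fell, 1 rose and 6 were not called, with a median of -0.15. The branched-chain aminotransferase BCAT1 (-0.82) and the aminotransferases GPT2 (-0.44), GOT1 (-0.33) and GOT2 (-0.28) fell, and GPT, from 0.986 to 2.47 CPM, rose (1.31).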

How the data were processed

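The authors deposited 1 table of gene counts for the 6 libraries. The submitters' processing notes name HISAT2, StringTie and SAMtools and the build hg38, with no versions, and the sources used here do not give the counting step or its use of strand. The authors' own log2 fold changes and p-values in the deposited table come from their comparison of the groups, made by a method that is not stated, and are not used. Of 28915 deposited entries, 1521 repeats of a name with identical counts were removed. Counts were tested with edgeR 4.0.16 in R 4.3.3 (TMM, filterByExpr, quasi-likelihood test, control against CTSV shRNA libraries), with Benjamini-Hochberg adjustment over all 15968 genes and a threshold of 0.05, and the script was tested on simulated data. Ratios and summed levels used an exact two-sided permutation test. Ratios per library are of raw counts, and their log2 differences, average folds and tests used counts with 0.5 added. Transcript lengths and annotation are from GENCODE v29. Transporter genes are given per library where called at a mean of 5 CPM or more, or not called at 20 CPM or more, and other lists by up to 4 called genes of smallest adjusted p. Members and lists were chosen with earlier results of these data known. Alternatives were other scalings, filters, DESeq2 1.42.0, length and GC offsets, a replicate block and each library left out. Totals of 16258803 to 18106207 counts set the counting precision.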

Additional observations from a re-analysis of the deposited data

How the results depend on the processing

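Of the 25 called transporter genes, 24 kept their call under each alternative run, the exception being SLC38A7. Of the 15 not called, 9 stayed so, and SLC7A7, SLC36A4, SLC38A4, SLC38A10, SLC6A11 and SLC6A16 were called under at least 1 alternative. Libraries of the same number correlated at -0.0122, -0.0025 and 0.0212 after removal of group means, so no strong effect shared by number was seen. Whether libraries of the same number shared a culture or batch cannot be told from these values. The fit with a replicate block called 17 transporter genes lower and 8 higher, and 3490 and 2996 of all genes. With a change of at least 2-fold required, 4 transporter genes were lower and 6 higher, and over all genes 676 were higher and 153 lower. Of the summed log2 differences, SLC3A turned to 1.97 without its gene of highest level, SLC3A2. Without the gene of highest level SLC7A was at -0.53, SLC43A at -0.28 and SLC36A at 0.16. With no length correction SLC7A was at -0.37 and SLC36A at 0.0166. On library totals SLC7A was at -0.24 and SLC38A at -0.30. With the longest transcript, an alternative chosen after seeing the data, SLC38A was at -0.29 and SLC36A at 0.0185. Leaving out each library in turn gave 16 to 17 transporter genes lower and 8 to 10 higher. Depth limits genes with few counts: SLC7A4, SLC7A9 and SLC36A3 could not be tested, and intervals for SLC6A16 and SLC6A19 are wide.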
